A study of Mus musculus with 24 samples.

Results

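The genes described here are the receptors and ligands of vascular endothelial growth factor (VEGF): the receptors Kdr, Flt1 and Flt4, the co-receptors Nrp1 and Nrp2, and the ligands Vegfa, Vegfb, Vegfc and Pgf. They were chosen by name, as the rows of the count table whose Ensembl identifier carries one of these symbols in GENCODE M21, and they are 9 of 55401 genes. The 3 receptors are targets of cabozantinib (cabo), an oral inhibitor of receptor tyrosine kinases that also acts on MET and AXL. RNA was sequenced from 24 tumors grown in male C57/BL6 mice of 8 to 10 weeks from TC2Ras cells, which are TRAMP-C2 mouse prostate adenocarcinoma cells that carry activated H-Ras and extra androgen receptor. Subcutaneous (SC) tumors, taken 1 week after implantation, came from mice given an IL-27 vector (n = 2) or an empty vector (control, n = 2) by sonoporation of muscle. Intratibial tumors grew from TC2Ras-Luc cells, which also express luciferase, in mice that all received a plasmid and all received either cabo, at 30 mg/kg a day for 2 weeks, or its vehicle, 15% polyvinylpyrrolidone (PVP). Their 4 groups were control (empty vector and PVP), IL-27 (IL-27 vector and PVP), cabo (empty vector and cabo) and IL-27+cabo, with 3 tumors each on day 14 (D14) and 2 each at the ethical endpoint, labelled EOS. The day of each EOS harvest is not given in the sources used here. The paper reports longer survival with cabo and with IL-27+cabo than in control. EOS tumors of these groups may therefore have been taken later, and EOS is not a single matched time. The IL-27 plasmid was given to muscle and not to the tumor cells, all tumor cells derive from TC2Ras, and the hosts had an intact immune system. Where IL-27 was made was not measured here.

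In blood and lymph vessels, VEGF ligands bind receptor tyrosine kinases on endothelial cells. KDR (VEGFR2) carries most of the signal for endothelial growth and survival, FLT1 (VEGFR1) binds VEGFA tightly but signals weakly and also exists as a soluble decoy, and FLT4 (VEGFR3) is the receptor for VEGFC on lymphatic endothelium and on sprouting blood vessels of tumors. Neuropilins lack kinase activity, present VEGF to the kinases and also bind class 3 semaphorins, and they are made by many cells besides endothelium. VEGFA is induced by low oxygen, VEGFB and placental growth factor (PGF) bind FLT1, and VEGFC drives the growth of lymph vessels.

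Kdr lies on chr5:75932827-75978458 and Flt1 on chr5:147561604-147726011, both on the minus strand of GRCm38, and the transcripts of both were lower in every D14 tumor given cabo than in every one given vehicle (values below). Flt4 had the same D14 pattern with a larger fall, and its promoter is not shown. The bases 250 to 11 before the RefSeq start of Kdr and of Flt1 are given here for that D14 pattern. The RefSeq start of Kdr differs slightly from that of GENCODE M21. They are from RefSeq (GRCm38.p6), read 5′ to 3′ on the strand of the gene, and lie at chr5:75978466-75978705 for Kdr and chr5:147726022-147726261 for Flt1. Capitals mark GGAA, the core of sites for ETS factors, or its reverse complement.
Kdr: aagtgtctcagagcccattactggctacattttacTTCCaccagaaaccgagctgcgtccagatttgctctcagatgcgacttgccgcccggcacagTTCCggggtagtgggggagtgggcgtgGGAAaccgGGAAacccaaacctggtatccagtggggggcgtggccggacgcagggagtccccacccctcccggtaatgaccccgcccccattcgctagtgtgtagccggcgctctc
Flt1: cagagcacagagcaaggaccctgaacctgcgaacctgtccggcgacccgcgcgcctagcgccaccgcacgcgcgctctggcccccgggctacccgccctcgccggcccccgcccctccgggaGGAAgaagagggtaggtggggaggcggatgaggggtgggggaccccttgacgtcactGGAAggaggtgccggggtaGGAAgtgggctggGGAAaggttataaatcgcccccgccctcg
Each window held 4 matches to GGAA on either strand, and 92.7% of 32851 RefSeq promoters of the same window hold at least 1. The GC box GGGCGG was matched 2 times for Kdr and 3 times for Flt1, against 31.3% of promoters with a match, and ACGTG, the core of hypoxia response elements, was matched 0 times in both, against 15.9% of promoters with a match.

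Each library held between 63729005 and 83782258 counts on genes. The defining endothelial markers were present in every tumor, with none of 18 at 0, so the receptors could be set against them. The D14 IL-27+cabo tumor of mouse 20 stood apart: it had the lowest total, its correlation with a tumor of its own group fell to 0.958 while the lowest in any other group was 0.986, and the D14 receptor calls of cabo over both vectors are given with and without it. Skeletal muscle transcripts varied widely between tumors. Their 15 markers summed to between 1241 and 5322 CPM (counts scaled to the library's effective total) in the 6 D14 tumors given cabo and to between 43.7 and 2297 CPM in the 6 given vehicle, where all but 1 were at or below 200.1 CPM. In bulk tumors, fewer cells of a type and less RNA per cell cannot be told apart. The labels give each intratibial tumor its own mouse number. They do not say whether the SC tumors of a group came from separate mice, so p-values there measure only the spread between samples, which may be technical.

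In D14 control tumors the means of the 4 ligands stood above those of the 3 kinases per kilobase of exon. The mean levels were 44.2 ± 23.9 CPM per kb (SD, n = 3) for Vegfa and 26.97 ± 4.85 for Vegfc. Nrp2 had 12.8 ± 0.77 CPM per kb and Vegfb 12.03 ± 2.06, followed by Pgf with 6.82 ± 5.14. The kinases and the other neuropilin came last, with 4.20 ± 1.21 CPM per kb for Flt1, 3.17 ± 0.71 for Nrp1, 2.94 ± 0.87 for Kdr and 2.42 ± 0.71 for Flt4. Of neighbours in that order, only Vegfc and Nrp2 did not overlap between tumors. In D14 cabo tumors the order ended with Flt1 at 1.93 ± 0.33, Kdr at 0.996 ± 0.27 and Flt4 at 0.126 ± 0.039 CPM per kb, and the tumors of one gene did not overlap those of the next. Flt4 had the lowest level per kb of the 9 genes in 8 of 10 groups, the exceptions being the EOS control and EOS IL-27 groups, where Nrp1 was lower. Per kilobase of the longest transcript Flt4 was the lowest in all 10.

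The D14 comparison of cabo with vehicle asks which transcripts change while the kinase inhibitor is given. All 3 receptor transcripts fell, and Flt4 fell most. Kdr was at 30.3, 31.8 and 17.6 CPM in the control tumors and at 15.2, 21.6 and 16.5 CPM in the IL-27 tumors. It was at 6.26, 9.84 and 10.9 CPM in the cabo tumors and at 3.92, 8.38 and 7.46 CPM in the IL-27+cabo tumors. Every tumor given cabo was below every tumor given vehicle. Flt1 had 38.2, 62.7 and 69.3 CPM in control tumors and 75.2, 68.9 and 38.0 CPM in IL-27 tumors. It had 25.2, 22.1 and 31.0 CPM with cabo and 12.9, 24.8 and 21.8 CPM with IL-27+cabo, again without overlap between cabo and vehicle. Gene counts do not separate the soluble and the membrane form of Flt1.

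Flt4 (chr11:49609263-49652739, plus strand) had 17.3, 26.6 and 15.8 CPM in the control tumors and 13.4, 12.6 and 11.98 CPM in the IL-27 tumors. With cabo it had 0.798, 0.908 and 1.40 CPM, and with IL-27+cabo 1.11, 1.65 and 1.98 CPM. The highest tumor given cabo was thus below the lowest given vehicle by a wide gap, and over all 20 intratibial tumors Flt4 spanned a 33.3-fold range.

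**Figure D1:**
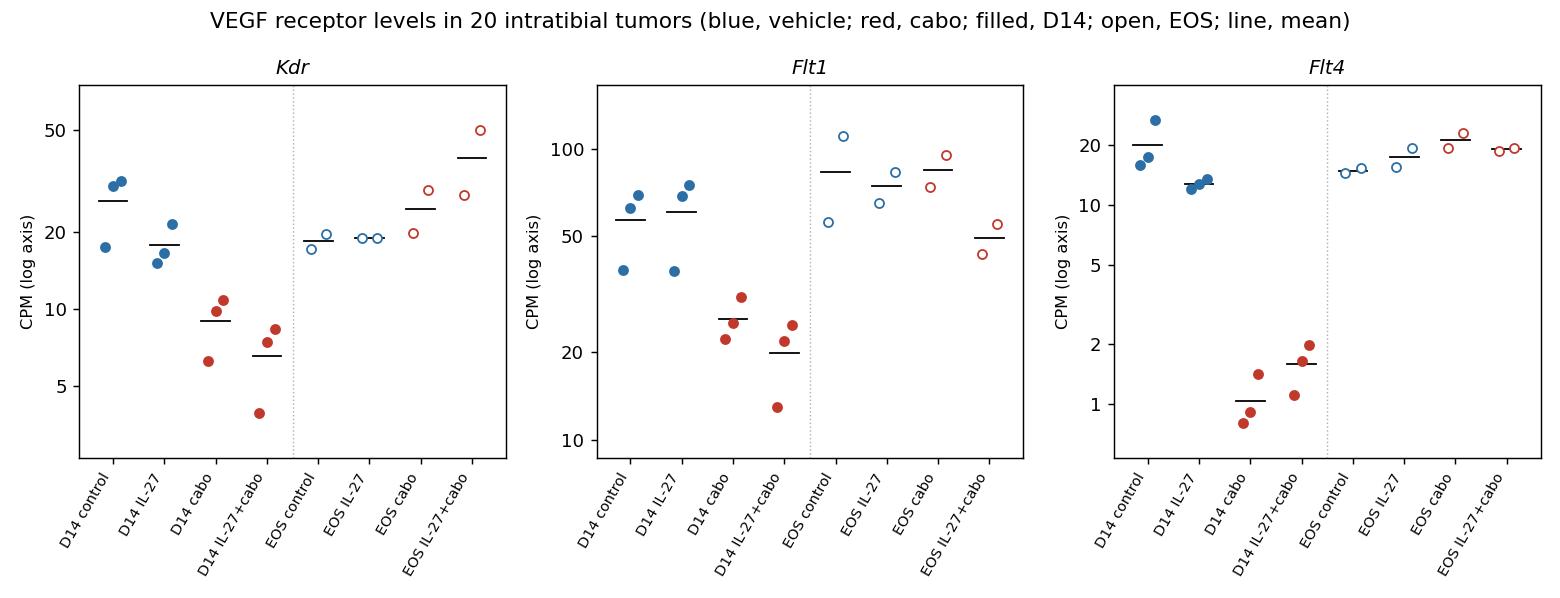
Levels of Kdr, Flt1 and Flt4 in each intratibial tumor, in CPM on a log axis, by group and time (blue, vehicle; red, cabo; filled, D14; open, EOS). Each point is 1 tumor and each line a group mean. On D14 the Flt4 points of the tumors given cabo lie between 0.798 and 1.98 CPM, and those given vehicle between 11.98 and 26.6 CPM.

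Over both vectors, with the vector as a term, edgeR's quasi-likelihood test with Benjamini-Hochberg adjustment over 19899 genes called 3 of the 9 genes, all lower with cabo, where 0.895% of all genes were called. The log2 fold change was -3.63 ± 0.30 (SE) for Flt4 (adjusted p = 0.000121, 12.4-fold lower). It was -1.50 ± 0.23 for Kdr (adjusted p = 0.00943, 2.83-fold lower) and -1.37 ± 0.23 for Flt1 (adjusted p = 0.0187, 2.58-fold lower). By p, Flt4 stood at rank 4 among all genes tested, Kdr at 48 and Flt1 at 74. Without mouse 20 the values were -3.60 for Flt4, -1.39 for Kdr and -1.24 for Flt1, all still called. The call of Flt1 was lost (adjusted p from 0.0557 to 0.0659) without any one of IL-27+cabo mouse 24, cabo mice 21 and 25 or control mice 5 and 7. With the muscle score as a covariate Flt4 was at -3.54 (adjusted p = 0.00514), whereas Kdr at -1.41 (adjusted p = 0.564) and Flt1 at -1.03 (adjusted p = 1) were not called. None of the 15 muscle markers was called in this comparison, though all had a positive log2 fold change (median 3.39), and their part in the result was not tested beyond this covariate.

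Among mice given the empty vector, cabo against control called 2 of the 9 genes, beside 1.89% of 18627 genes. Flt4 fell by 4.26 ± 0.30 on the log2 scale (edgeR, adjusted p = 0.00256, 19.2-fold lower) and Kdr by 1.56 ± 0.28 (adjusted p = 0.0401). Flt1 was at -1.12 ± 0.23 (adjusted p = 0.0572), and DESeq2 called it. Of T cell markers 5 of 8 were lower and of muscle markers 4 of 15 higher in the same comparison, while erythroid markers summed to 14.2 to 29.4 CPM with cabo and 52.6 to 242 CPM in control, and fibroblast markers to 9873 to 10357 and 7575 to 8237 CPM. The part of T cells, erythroid cells and fibroblasts was not tested. The call of Kdr was lost without any one of cabo mice 21, 25 and 27 or control mice 3 and 5 (adjusted p from 0.0663 to 0.131), with no filter (adjusted p = 0.110) and with all intratibial groups in one fit (adjusted p = 0.109). With the muscle score as a covariate neither gene was called, with Flt4 at -5.00 (adjusted p = 0.148) and Kdr at -1.72 (adjusted p = 0.648).

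IL-27+cabo against control called only Flt4 of the 9 genes, at -3.63 ± 0.36 (edgeR, adjusted p = 0.0406), beside 0.064% of 18750 genes. Kdr was at -1.99 ± 0.38 (adjusted p = 0.189) and Flt1 at -1.50 ± 0.34 (adjusted p = 0.269). The Flt4 call was kept without mouse 20, when Kdr was called as well (-1.74, adjusted p = 0.0494), and it was lost without any one of the other 5 tumors (adjusted p from 0.118 to 0.374) and with the muscle score as a covariate (-3.96, adjusted p = 1). IL-27+cabo against IL-27 called 0% of 18570 genes by edgeR, with 900 at an unadjusted p under 0.05 and 167 called by DESeq2. Flt4 was at -3.01 ± 0.35 (adjusted p = 0.305), Kdr at -1.44 ± 0.37 (adjusted p = 0.916) and Flt1 at -1.62 ± 0.38 (adjusted p = 0.907), and DESeq2 called all 3.

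IL-27 alone gave no call on D14. IL-27 against control called 0% of 18519 genes by edgeR (511 at an unadjusted p under 0.05, 2 by DESeq2). Kdr was at -0.57 ± 0.26 and Flt4 at -0.64 ± 0.23 on the log2 scale, both with an adjusted p of 1, and the Flt4 levels of the 2 groups did not overlap. Nrp1 had the smallest p of the 9 genes, at -0.84 ± 0.20 (adjusted p = 1), also without overlap. How many of all genes separate in this way is not given here, so the lack of overlap is no result about either gene. IL-27+cabo against cabo likewise called 0% of 18662 genes (359 at an unadjusted p under 0.05, 5 by DESeq2), and the 9 genes lay between -0.43 and 1.19, the highest being Vegfb, which was at 0.25 without mouse 20. The interaction of IL-27 and cabo called 0% of 19899 genes (375 at an unadjusted p under 0.05, 4 by DESeq2), with the 9 genes between -1.01 and 1.24.

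The fall of Flt4 was larger than that of the endothelial markers. The mean log2 CPM of the 18 markers (the endothelial score) lay between 2.16 and 2.57 in the 6 D14 tumors given cabo and between 3.00 and 3.61 in the 6 given vehicle. A receptor's log2 CPM minus this score was compared between cabo and vehicle with an exact two-sided permutation test of cabo labels within each vector (400 arrangements, smallest p 0.005), for 5 genes and without adjustment. Flt4 went from 0.75 with vehicle to -1.99 with cabo, a difference of -2.74 (exact p = 0.005). Kdr went from 1.19 to 0.56, a difference of -0.63 (exact p = 0.03), and p was 0.05 or more (0.05 to 0.075, exact test) without any one of 8 of the 12 tumors, mouse 20 among them (-0.46). For Flt4 the difference lay between -2.88 and -2.62 when single tumors were left out. For Flt1 the difference was -0.46 (exact p = 0.215).

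Relative to the endothelial score, which itself was lower by 0.88 with cabo (difference -0.88), both neuropilins stood higher, as a transcript that does not change with cabo would. Nrp1 was higher by 1.20 (exact p = 0.005) and Nrp2 by 1.13 (exact p = 0.015), and without mouse 20 the differences were 1.29 and 1.36 (exact p = 0.005 for each, the smallest the 200 arrangements allow). Against the 8 markers of lymphatic endothelium in place of the endothelial ones, Flt4 was lower by 1.81 on the log2 scale (difference -1.81, exact p = 0.005). At EOS the mean Flt4 level relative to the endothelial score was 0.75 in control, 1.20 in IL-27, 0.58 in cabo and 0.39 in IL-27+cabo tumors (n = 2 each).

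**Figure D2:**
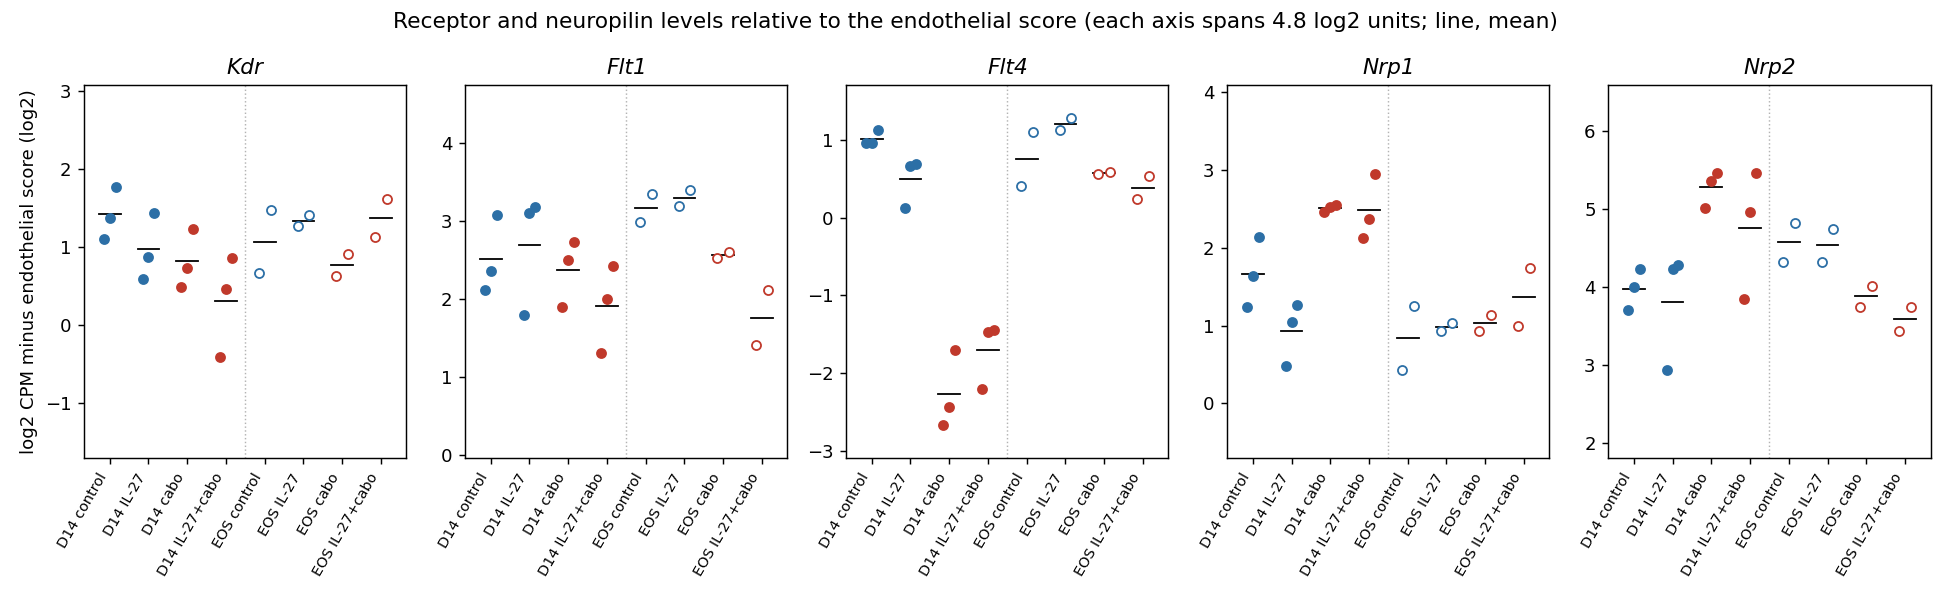
Log2 CPM of each receptor and neuropilin minus the endothelial score, for each intratibial tumor by group and time. Points are tumors and lines group means, and each axis spans the same number of log2 units. Flt4 lies at a mean of -2.27 in D14 cabo and -1.70 in D14 IL-27+cabo tumors, and at 1.01 in D14 control tumors.

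At EOS, after the 2 weeks of dosing, Kdr and Flt4 were no longer low in tumors given cabo. Kdr had 29.4 and 19.8 CPM in cabo tumors and 27.98 and 50.2 CPM in IL-27+cabo tumors, against 19.6 and 17.2 CPM in control and 18.9 and 19.002 CPM in IL-27 tumors. All 4 tumors given cabo were above all 4 given vehicle. Endothelial marker sums separated too, at 364 to 489 CPM with cabo and 206 to 339 CPM with vehicle. Relative to the endothelial score Kdr overlapped, at 0.63 to 1.62 with cabo and 0.67 to 1.47 with vehicle. T cell sums (6.41 to 10.2 against 12.997 to 17.03 CPM) and muscle sums (144 to 1005 against 47.6 to 85.9 CPM) also separated. Fibroblast sums overlapped. The part of these cell types was not tested. Flt4 had 23.02 and 19.2 CPM with cabo and 18.6 and 19.3 CPM with IL-27+cabo, against 15.2 and 14.4 CPM in control and 15.5 and 19.2 CPM in IL-27 tumors. Flt1 had 95.1 and 73.9 CPM with cabo and 55.4 and 43.5 CPM with IL-27+cabo, against 56.2 and 110.6 CPM in control and 65.3 and 83.3 CPM in IL-27 tumors, so that the cabo tumors overlapped those given vehicle while both IL-27+cabo tumors were below all 4.

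From D14 to EOS within the cabo group, edgeR called 3 of the 9 genes, all higher, beside 2.09% of 19144 genes. Other cell types moved too. T cell marker sums ranged from 22.9 to 31.2 CPM on D14 and from 7.50 to 8.66 CPM at EOS. Erythroid sums ranged from 14.2 to 29.4 and from 78.1 to 85.4 CPM, and fibroblast sums from 9873 to 10357 and from 5774 to 6533 CPM. Muscle sums ranged from 1241 to 1919 and from 177 to 1005 CPM, and macrophage sums from 849 to 1096 and from 681 to 690 CPM. Apart from the muscle score as a covariate, their part was not tested. Flt4 rose 20.4-fold (log2 fold change 4.35 ± 0.26, adjusted p = 0.00181), Flt1 3.24-fold (1.70 ± 0.16, adjusted p = 0.00798) and Kdr 2.73-fold (1.45 ± 0.26, adjusted p = 0.0499). The Kdr call was lost without any one of the 5 tumors (adjusted p from 0.0911 to 0.117), and Flt1 was at an adjusted p of 0.054 without mouse 21. Kdr was also lost with RLE scaling (adjusted p = 0.0507), with no filter (0.132), with the muscle score as a covariate (0.0944) and with all intratibial groups in one fit (0.208), where Flt1 was lost as well (0.0700). Nrp2 was at 0.10 ± 0.07 (adjusted p = 0.530). In the IL-27+cabo group 0% of 19365 genes were called (742 at an unadjusted p under 0.05, 326 by DESeq2). There Flt4 was at 3.57 ± 0.39 (adjusted p = 0.285), Kdr at 2.56 ± 0.45 (adjusted p = 0.451) and Flt1 at 1.31 ± 0.36 (adjusted p = 0.739), and DESeq2 called Flt4 and Kdr.

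In the groups given vehicle none of the 9 genes was called between the times. In control tumors 0.104% of 19292 genes were called. Nrp1 was at -0.96 ± 0.22 (adjusted p = 0.197), Nrp2 at 0.49 ± 0.12 (adjusted p = 0.198) and Vegfa at 0.79 ± 0.54 (adjusted p = 0.561), and DESeq2 called both neuropilins. Without control mouse 9 Vegfa was at 0.067, and without D14 control mouse 3 at 0.41. In IL-27 tumors 0% of 19078 genes were called (963 at an unadjusted p under 0.05, 105 by DESeq2), with the 9 genes between -1.06 and 0.48.

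At EOS, edgeR called 0% of 20026 genes in each comparison with control. For cabo (1783 at an unadjusted p under 0.05, 270 by DESeq2) Kdr was at 0.40 ± 0.29 (adjusted p = 0.732) and Flt4 at 0.50 ± 0.18 (adjusted p = 0.511). For IL-27+cabo (2835 at an unadjusted p under 0.05, 928 by DESeq2) Kdr was at 1.08 ± 0.30 (adjusted p = 0.207), Flt1 at -0.76 ± 0.31 (adjusted p = 0.331) and Flt4 at 0.35 ± 0.18 (adjusted p = 0.421). Nrp1, with the smallest p of the 9 genes there, was at 1.34 ± 0.35 (adjusted p = 0.201) and Vegfa at -1.31 ± 0.39 (adjusted p = 0.234), and DESeq2 called Kdr, Nrp1 and Vegfa. Without IL-27+cabo mouse 28 Nrp1 was at 0.69 and Kdr at 0.60, and without control mouse 9 Vegfa was at -0.58 and Flt1 at -0.19. For IL-27 (651 at an unadjusted p under 0.05, 23 by DESeq2) the 9 genes lay between -1.63 and 0.23.

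The change under cabo differed between the times. The difference in the cabo effect, EOS minus D14 over both vectors in a fit of all 20 intratibial tumors, was called for 2 of the 9 genes, beside 0.292% of 21563 genes. It was 3.93 ± 0.30 on the log2 scale for Flt4 (edgeR, adjusted p = 8.56e-06), which had the smallest p of all genes tested, and 2.20 ± 0.37 for Kdr (adjusted p = 0.0102). Flt1 was at 1.06 ± 0.35 (adjusted p = 0.417). Nrp1 was at 0.82 ± 0.30 (adjusted p = 0.494), Nrp2 at -0.29 ± 0.33 (adjusted p = 0.894) and Vegfa at -0.47 ± 0.50 (adjusted p = 0.890). With the muscle score as a covariate Flt4 was at 3.93 (adjusted p = 2.16e-05) and Kdr at 2.19 (adjusted p = 0.0156). Without EOS IL-27 mouse 10, Kdr was at an adjusted p of 0.0597. Time, the end of dosing and any difference between groups in the day of EOS harvest cannot be told apart.

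**Figure D3:**
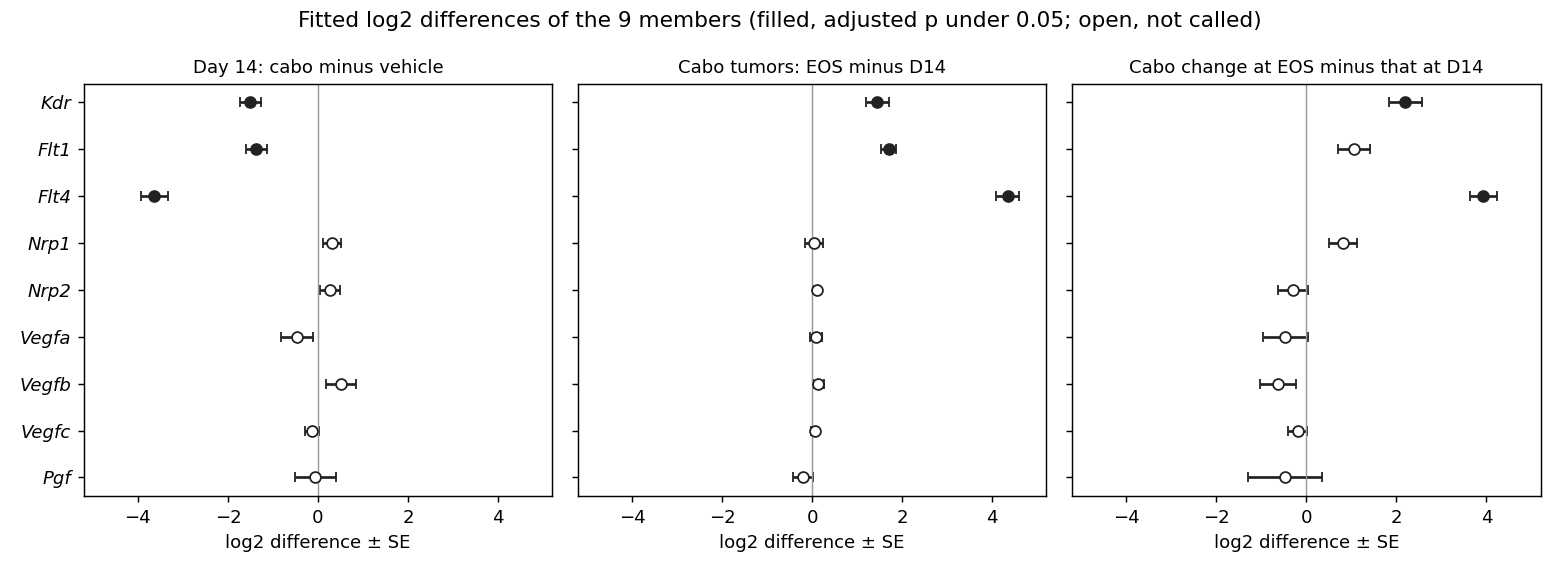
Log2 fold changes of the 9 genes, with their SE from edgeR, for cabo against vehicle on D14 over both vectors, for EOS against D14 in the cabo group and for the difference in the cabo change between the times. Filled points were called. Flt4 lies at -3.63, 4.35 and 3.93.

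The neuropilins did not share the fall of the kinases. Nrp1 (chr8:128358604-128503363, plus strand, with the microRNA gene Mir1903 inside it on the same strand) had 38.8, 28.7 and 25.4 CPM in D14 control and 17.1, 19.2 and 15.3 CPM in D14 IL-27 tumors. It had 24.7, 34.9 and 26.7 CPM with cabo and 22.8, 36.0 and 28.2 CPM with IL-27+cabo. The IL-27 tumors were below all others, and cabo against vehicle over both vectors gave 0.32 ± 0.20 (adjusted p = 0.586). At EOS Nrp1 was at 34.4 and 24.2 CPM with cabo and 25.6 and 54.5 CPM with IL-27+cabo, and between 13.5 and 16.9 CPM in the 4 tumors given vehicle, without overlap.

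Nrp2 (chr1:62703285-62818695, plus strand) had the highest level per kilobase of the 5 receptors and co-receptors in all 10 groups. It had 141.2, 159.3 and 152.8 CPM in D14 control tumors and 183.4, 192.3 and 205.5 CPM in D14 cabo tumors, which did not overlap, and the log2 fold change was 0.36 ± 0.09 (edgeR, adjusted p = 0.0853; called by DESeq2). IL-27 tumors had 155.4, 155.2 and 83.6 CPM and IL-27+cabo tumors 75.3, 204.9 and 170.4 CPM, the lowest being mouse 20. Over both vectors Nrp2 was at 0.27 ± 0.22 (adjusted p = 0.699), and at 0.42 without mouse 20 (adjusted p = 0.0956). At EOS it lay between 138.2 and 218.5 CPM in all 8 tumors.

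None of the 4 ligands was called for cabo on D14. Vegfa (chr17:46016993-46032369, minus strand) varied widely between tumors of the same group. It had 72.0, 257.7 and 238.8 CPM in D14 control tumors and 519.4, 224.8 and 162.3 CPM in D14 IL-27 tumors. The 6 D14 tumors given cabo lay closer together, between 139.7 and 210.3 CPM. Over both vectors the log2 fold change was -0.48 ± 0.36 (edgeR, adjusted p = 0.674), and between -0.70 and -0.13 when single tumors were left out. At EOS Vegfa was at 194.6 and 454.9 CPM in control, 279.5 and 302.4 CPM in IL-27, 188.7 and 217.5 CPM in cabo and 166.6 and 95.6 CPM in IL-27+cabo tumors.

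Vegfc (chr8:54077606-54187096, plus strand) was the steadiest ligand, with a range of 1.89-fold over the 20 intratibial tumors. It lay between 50.4 and 83.1 CPM in all 12 D14 tumors and was lowest in the EOS IL-27+cabo tumors, with 43.9 and 46.6 CPM. Vegfb (chr19:6982473-6987651, minus strand) lay between 15.7 and 25.6 CPM in 19 intratibial tumors and at 82.4 CPM in mouse 20. Cabo against vehicle over both vectors gave -0.13 ± 0.15 for Vegfc (adjusted p = 0.798) and 0.51 ± 0.33 for Vegfb (adjusted p = 0.609), which was 0.036 without mouse 20.

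Pgf (chr12:85166635-85177790, minus strand) had the widest range of the ligands, 14.7-fold over the intratibial tumors. It had 3.98, 21.8 and 33.7 CPM in D14 control and 33.4, 23.1 and 14.3 CPM in D14 IL-27 tumors, 23.1, 15.02 and 21.3 CPM with cabo and 41.5, 12.9 and 10.4 CPM with IL-27+cabo. The groups overlapped and the log2 fold change over both vectors was -0.06 ± 0.47 (edgeR, adjusted p = 0.975), with a sign that turned when single tumors were left out. The control tumor of mouse 3 was lowest for both Vegfa and Pgf, and the EOS control tumor of mouse 9 was highest of all intratibial tumors for Pgf, with 58.5 CPM, and of the EOS tumors for Vegfa.

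**Figure D4:**
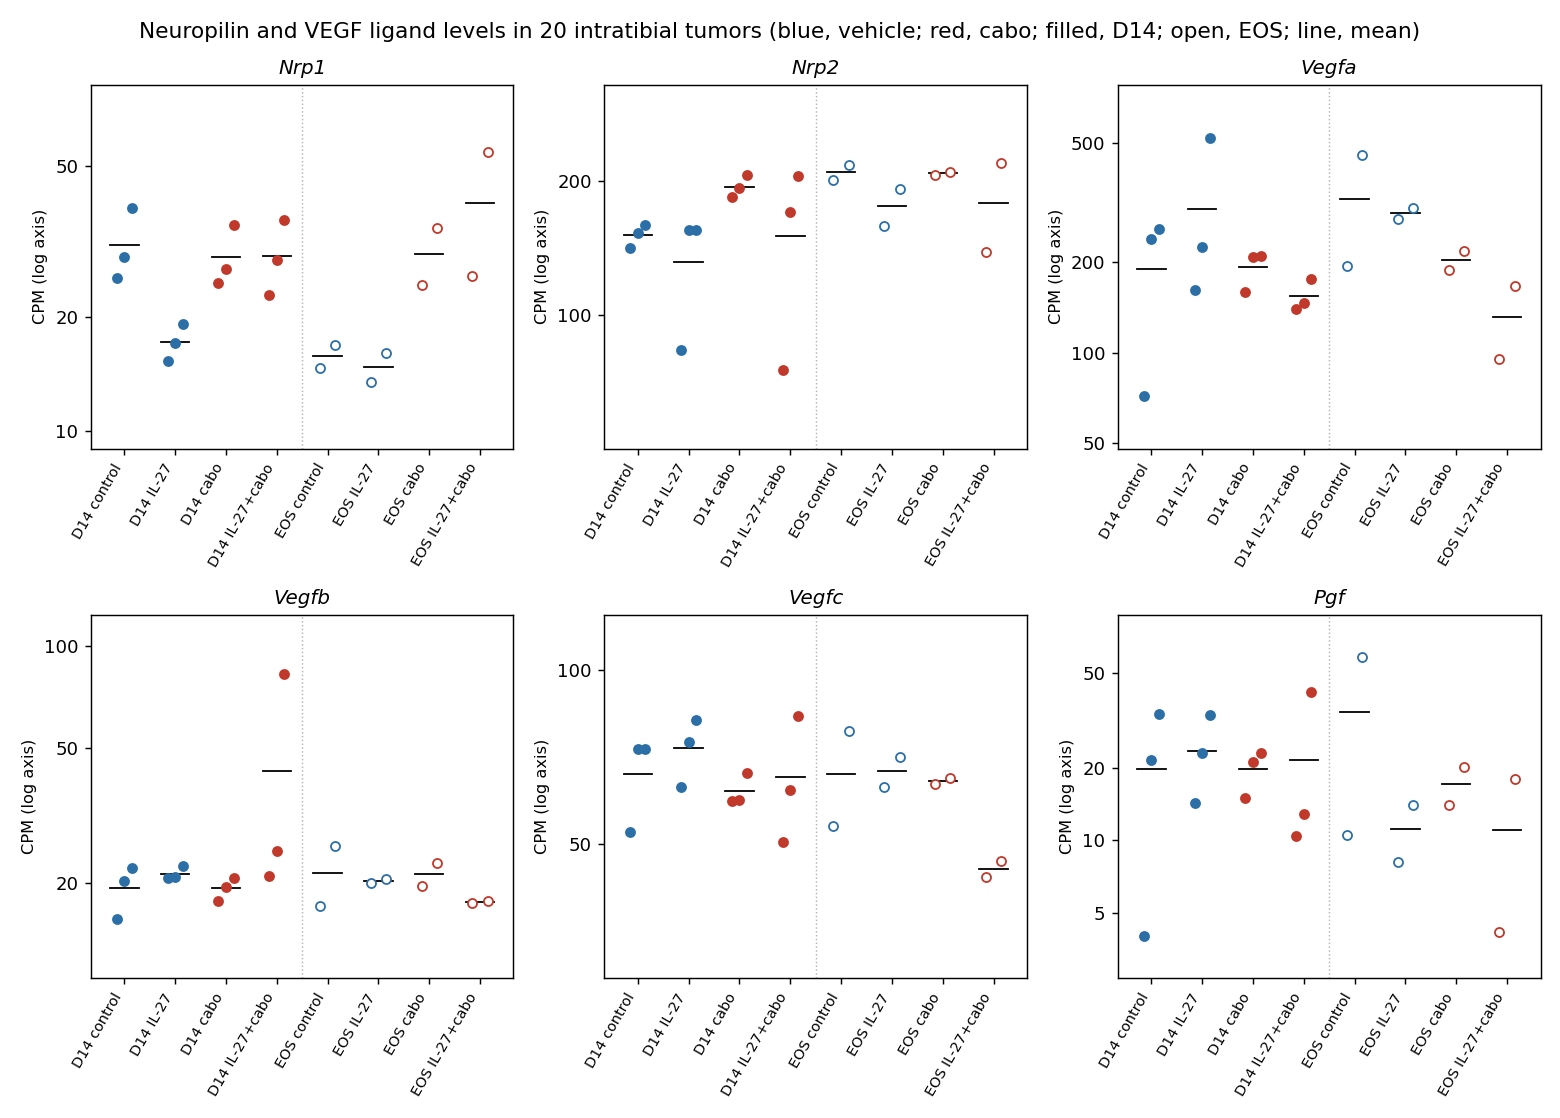
Levels of Nrp1, Nrp2, Vegfa, Vegfb, Vegfc and Pgf in each intratibial tumor, in CPM on a log axis, by group and time, with colors as for the receptors. Points are tumors and lines group means. Vegfc stays between 43.9 and 83.1 CPM, and the Vegfb point at 82.4 CPM is D14 IL-27+cabo mouse 20.

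The SC comparison asks how IL-27 alone changes a tumor outside bone. It called 2 of the 9 genes, both lower, beside 20% of 19360 genes, of which 682 were higher and 3198 lower. Vegfb had 18.4 and 7.12 CPM in control and 1.35 and 2.26 CPM in IL-27 treated tumors (log2 fold change -2.81 ± 0.62, edgeR adjusted p = 0.0204). Flt4 had 8.31 and 14.4 CPM in control and 2.33 and 3.96 CPM in IL-27 treated tumors (-1.84 ± 0.51, adjusted p = 0.0466). Vegfb, at 62.6% GC in its longest transcript, and Flt4, at 56.55%, have the highest GC content of the 9 genes. Pgf is close to Flt4, at 56.35%, and was at a log2 fold change of 1.32, not called. GC content and gene length were corrected jointly, and their parts were not tested apart. After a correction of every library for GC content and gene length, Vegfb was at 0.42 (adjusted p = 0.691) and Flt4 at 0.16 (adjusted p = 0.889), so that both directions turned. Without SC control replicate 1 neither was called, and Flt4 was also lost without SC control replicate 2 or SC IL-27 replicate 1 (adjusted p from 0.0778 to 0.174), with RLE scaling (adjusted p = 0.0526) and with no filter (adjusted p = 0.0808).

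The other 7 genes were not called in SC tumors. Kdr had 21.9 and 45.4 CPM in control and 57.1 and 90.8 CPM in IL-27 treated tumors (log2 fold change 1.15 ± 0.45, edgeR adjusted p = 0.118). Flt1 had 33.2 and 38.1 CPM in control and 52.1 and 105.7 CPM in IL-27 treated tumors (1.16 ± 0.41, adjusted p = 0.0916). Both were higher in every IL-27 treated tumor, and DESeq2 called both. The shares of all genes that separate in this way, or that DESeq2 called, are not given here, so neither is a result about Kdr or Flt1. Nrp1 was at 0.62 ± 0.42 (adjusted p = 0.336), Nrp2 at 0.44 ± 0.37 (adjusted p = 0.440), Vegfa at -0.58 ± 0.46 (adjusted p = 0.407) and Vegfc at 0.22 ± 0.35 (adjusted p = 0.692). Pgf, with 16.8 and 7.27 CPM in control and 5.14 and 54.6 CPM in IL-27 treated tumors, was at 1.32 ± 0.97 (adjusted p = 0.368) and turned to -1.22 without IL-27 replicate 2. Of 15 muscle markers 13 were higher and 1 lower in IL-27 treated tumors, with sums of 54.2 to 102 CPM in control and 442 to 1199 CPM in IL-27 treated tumors. Neutrophil and marrow granule markers summed to 1.14 to 2.396 CPM in control and 38.6 to 39.9 CPM in IL-27 treated tumors, T cell markers to 13.2 to 13.6 and 26.7 to 33.5 CPM, and tumor epithelial markers to 97.6 to 148 and 62.3 to 95.004 CPM. None of these sums overlapped between the groups, and the part of these cell types was not tested.

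**Figure D5:**
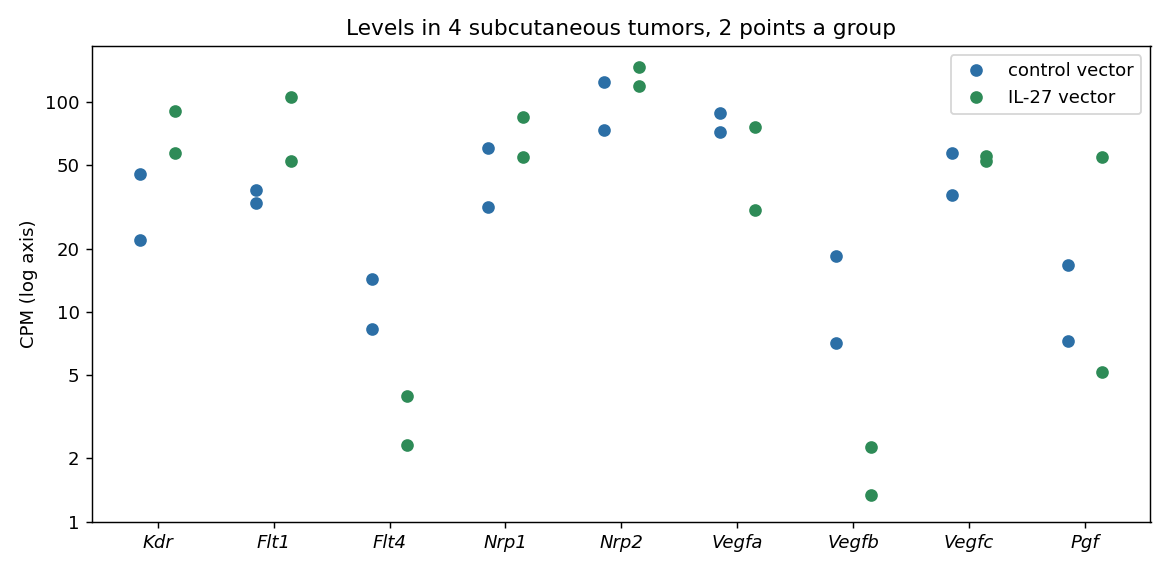
Levels of the 9 genes in the 4 SC tumors, in CPM on a log axis, control and IL-27 side by side, each point 1 tumor. Vegfb and Flt4 lie lower in both IL-27 treated tumors, and Kdr and Flt1 higher.

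Other genes of the pathway are given by counts over whole lists. On D14, with cabo against vehicle over both vectors, 5 of 16 genes induced by VEGF in endothelium were called, all lower, beside 0.437% of all genes called lower. Their median log2 fold change was -0.76, and that of all genes tested was 0.04. Among them were Dll4, a Notch ligand of sprouting tip cells, at -3.30 ± 0.19 (adjusted p = 7.81e-06), Esm1, a proteoglycan of tip cells, at -5.02 ± 0.40 (adjusted p = 0.000121), and the potassium channel subunit Kcne3 at -5.19 ± 0.42 (adjusted p = 0.000121). Of 18 endothelial markers 5 were lower (median -0.86), among them Emcn (-2.40 ± 0.22), Cldn5 (-2.57 ± 0.39) and Robo4 (-1.18 ± 0.19). Of 8 lymphatic markers 5 were lower (median -1.81), among them Lyve1, a hyaluronan receptor (-1.95 ± 0.27), the chemokine Ccl21a (-3.50 ± 0.58) and Prox1, the transcription factor of lymphatic identity (-2.16 ± 0.36).

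Downstream of the receptors, of 35 signal transducers 2 were lower (median -0.02), beside 0.437% of all genes, Nos3, the endothelial nitric oxide synthase, at -1.27 ± 0.21 (edgeR, adjusted p = 0.0150) and the kinase Fyn at -0.45 ± 0.09 (adjusted p = 0.0459). Of 7 class 3 semaphorins, ligands of the neuropilins, only Sema3f was called, lower at -2.16 ± 0.22 (adjusted p = 0.00075), and none of the 5 plexins was, with Plxnd1 at -0.49 ± 0.18 (adjusted p = 0.247). None of 20 hypoxia targets was called, with Car9, a carbonic anhydrase, at 1.15 ± 0.28 (adjusted p = 0.0773). In cabo against control alone Car9 was called higher, at 1.51 ± 0.22 (adjusted p = 0.0218). Of the 7 other genes of the VEGF family and its processing none was called, with Adamts14 at 0.68 ± 0.15 (adjusted p = 0.0635) and Vegfd at 0.43 ± 0.19 (adjusted p = 0.371).

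From D14 to EOS in the cabo group, 10 of 18 endothelial markers were higher (median 1.53), 1 of 8 lymphatic markers (median 0.84) and 6 of 16 VEGF-induced genes (median 0.57), with none lower, beside 0.945% of all genes called higher. Dll4 was at 3.47 ± 0.23, Esm1 at 4.56 ± 0.55, Kcne3 at 5.57 ± 0.25 and Nos3 at 1.95 ± 0.24, each called by edgeR. Sema3f, at 2.86 ± 0.21, and Plxnd1, at 0.57 ± 0.09, were called higher. Lyve1 was at 0.75 ± 0.37 (adjusted p = 0.352) and Prox1 at 1.57 ± 0.41 (adjusted p = 0.121). The difference in the cabo change between the times was called for 6 of 18 endothelial markers, 3 of 16 VEGF-induced genes and 1 of 8 lymphatic markers, all positive, beside 0.26% of all genes called positive, with Dll4 at 3.93 ± 0.31, Esm1 at 3.95 ± 0.53 and Kcne3 at 5.59 ± 0.62.

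In SC tumors, where 16.5% of all genes were called lower and 3.52% higher, members of the lists were called in both directions, for transducers and endothelial markers at shares close to or below those of all genes. These values were not corrected for GC content and gene length, a joint correction that turned the directions of Vegfb and Flt4. Of the other VEGF family genes, Vegfd was at 1.49 ± 0.36 (edgeR, adjusted p = 0.0288) and Ccbe1, a cofactor for the processing of VEGFC, at 1.45 ± 0.36 (adjusted p = 0.0326), while Adamts14 at -3.25 ± 0.34 and the protease Furin at -4.77 ± 0.40 were lower. Of 35 transducers 6 were lower, Nos3 among them at -4.26 ± 0.88. Of 5 plexins 3 were lower, with Plxnd1 at -3.01 ± 0.36, and 4 of 16 VEGF-induced genes were lower. Of 18 endothelial markers 2 were lower, Tie1 (-3.16 ± 0.47) and Cldn5 (-2.84 ± 0.72). Of 8 lymphatic markers 1 was lower, Ccl21a (-6.07 ± 1.34, adjusted p = 0.0207), and of 7 class 3 semaphorins Sema3f was lower (-2.32 ± 0.58, adjusted p = 0.0333) and Sema3c higher (1.95 ± 0.49, adjusted p = 0.0342).

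As a description, each gene's log2 CPM over the 20 intratibial tumors was correlated with that of 21554 other genes, which share libraries, treatments and times. The kinases lay close to each other, with Pearson's r of 0.88 between Kdr and Flt4, 0.85 between Flt1 and Flt4 and 0.71 between Kdr and Flt1. Within groups, as deviations from group means, these were 0.69, 0.46 and 0.14. The genes most like Kdr were Tspan18 (r = 0.95, 0.79 within groups), Pcdh12 (0.94) and Fgd5 (0.94). Those most like Flt1 were Kit (0.93, 0.73 within groups), Col4a2 (0.93) and Lrrc32 (0.92). Flt4 was most like Dll4 (0.96), Pcdh12 (0.96) and Robo1 (0.95), and within groups the correlation with Dll4 was 0.27 and that with Pcdh12 0.72.

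The neuropilins and ligands had other neighbours. Nrp1 was most like Tor3a (0.90), Tlr3 (0.89) and Samhd1 (0.89), and Nrp2 most like Amotl1 (0.94), Ubap2 (0.94) and Fn1 (0.93). Vegfa was most like Eno2 (0.94), Ero1l (0.94) and Appl2 (0.91), with Ero1l in the list of hypoxia targets. Vegfb was most like Sft2d1, Ndufa3 and Cox6c (0.95 each), which without mouse 20 had r of 0.65, 0.62 and 0.60. Vegfc had the weakest neighbours, Gm47163 (0.86) and Sept5 (0.82) among them, and Pgf was most like Gpi1, Gm13464 and Gm10358 (0.90 each). Among the ligands r was 0.67 between Vegfa and Pgf and 0.72 between Vegfc and Pgf.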

How the data were processed

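RNA was made into stranded poly(A) libraries. The table the authors deposited holds counts, as whole numbers per gene with no normalization, for the 4 subcutaneous and the 20 intratibial tumors. The submitters' processing notes name FastQC, HISAT2, StringTie and DESeq2 and list GRCh38, a human build, while the identifiers are of mouse. The program that made the counts is not given in the sources used here. Of 55401 identifiers 55141 matched GENCODE M21 (GRCm38) and 260 did not. In each library 30.4% to 35.5% of the values from 1 to 20 were multiples of 4, so the counts may understate counting error.

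The test was edgeR's quasi-likelihood F test (edgeR 4.0.16 in R 4.3.3), with filterByExpr and TMM scaling, two-sided, with Benjamini-Hochberg adjustment over all genes tested and calls under 0.05. All 9 genes passed the filter in every comparison. A fit held the tumors of the groups it compared. The comparison over both vectors and the interaction used all D14 groups, EOS comparisons used all EOS groups, and the difference between times used all 20 intratibial tumors. SC and intratibial tumors were normalized apart, and levels are CPM by effective library sizes. The replicate numbers of SC tumors did not pair them (correlation of deviations 0.031). Alternatives were DESeq2 1.42.0, RLE scaling, no filter, counts divided by 4, a correction of every library for GC content and gene length (splines with 5 degrees of freedom), the muscle score as a covariate, all intratibial groups in one fit, pairing of SC replicate numbers and leaving out each tumor in turn. Flt4 against lymphatic markers was added after seeing the data. Scripts were tested on simulated counts.

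The genes, the lists and the comparisons were chosen with earlier results of these data known. Named are the 9 genes, the 3 genes most like each, and the 3 genes of each pathway or endothelial list with the smallest p for cabo on D14 over both vectors, apart from some that are not reported here. Furin and Tie1 were named after their values were seen.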

Additional observations from a re-analysis of the deposited data

Results flagged for a closer look

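The change under cabo differed between D14 and EOS for 2 of the 9 genes, by the test of the difference itself in a fit of all 20 intratibial tumors. The difference, EOS minus D14 over both vectors, was 2.20 on the log2 scale for Kdr (edgeR, adjusted p = 0.0102) and 3.93 for Flt4 (adjusted p = 8.56e-06). Kdr was lower in all 6 D14 tumors given cabo than in all 6 given vehicle, and higher in all 4 EOS tumors given cabo than in all 4 given vehicle. The gap at EOS was narrow, with 19.8 CPM in cabo mouse 23 and 19.6 CPM in control mouse 13. In each EOS comparison with control edgeR called 0% of 20026 genes. How many of all genes separate in this way is not given here. Endothelial markers summed to between 157 and 210 CPM in the D14 tumors given cabo and to between 233 and 378 CPM in those given vehicle. At EOS they summed to between 364 and 489 CPM with cabo and to between 206 and 339 CPM with vehicle. Their part in the difference was not tested.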

How the results depend on the processing

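Counts below are of the 9 genes called by edgeR unless another tool is named. The main edgeR fits called 20% of all genes in SC tumors and 0.104% from D14 to EOS in control. Against control on D14 they called 1.89% for cabo and 0.064% for IL-27+cabo. The share of all genes called under each alternative is not given beside the counts, so the counts are no result about the 9 genes. DESeq2 called 4 in SC tumors (2 by edgeR), 4 for cabo against control on D14 (2), 3 for IL-27+cabo against control (1), 3 for IL-27+cabo against IL-27 (0), 2 from D14 to EOS in control (0), 2 in IL-27+cabo (0) and 3 for EOS IL-27+cabo against control (0). With RLE scaling or no filter 1 was called in SC tumors, and with no filter 1 for cabo against control on D14. With the muscle score as a covariate 0 were called for cabo and 0 for IL-27+cabo against control, and 1 over both vectors. With all intratibial groups in one fit 1 was called for cabo against control, 2 for IL-27+cabo against control, 1 for IL-27+cabo against IL-27, 1 from D14 to EOS in cabo (3 otherwise) and 2 in IL-27+cabo. In SC tumors corrected for GC content and gene length 0 were called, and Flt4 turned to 0.16, Nrp1 to -0.24, Vegfb to 0.42 and Vegfc to -0.46. With a replicate block, though the numbers did not pair the tumors, 2 were called, and with the replicate block and that correction 0, with Flt4 at 0.15, Nrp1 at -0.26, Vegfb at 0.45 and Vegfc at -0.39. Leaving out each tumor in turn, where a lone tumor is taken to vary like the other group, the number called ranged from 0 to 2 in SC tumors, 1 to 2 for cabo and 0 to 2 for IL-27+cabo against control, 2 to 3 for cabo over both vectors, 1 to 2 from D14 to EOS in cabo and 1 to 2 for the difference between times. The sign turned for SC Vegfc (-0.12 to 0.60), SC Pgf (-1.22 to 2.18) and Pgf over both vectors (-0.45 to 0.21). Relative to the endothelial score Kdr ranged from -0.77 to -0.46 and Nrp2 from 0.91 to 1.36. The cause of these shifts was not tested.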
